A study of Mus musculus with 4 samples.

Results

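The 44 genes described here code for proteins that copy the genome in S phase, separate the copies in mitosis or time these steps. They were taken by symbol from a fixed list, and all 44 symbols were found among the 32285 genes of the deposited single-cell matrices. By role the list holds 17 S phase genes, 23 mitotic genes and 4 genes that dividing cells use heavily but that resting cells express too (Stmn1, Hmgb2, Tubb5 and H2afz). The values are RNA counts of T cells sorted for CD3 from subcutaneous tumors in wild-type C57BL/6J mice. All tumors grew from Tsc2-deficient 105K cells, a mouse kidney tumor line, which carried either a non-targeting hairpin (sh_NC) or a hairpin (sh_B7-H3 (1)) that targets Cd276, which codes for the checkpoint protein B7-H3. Each group had 2 libraries, and the series' design text says that each group's 80 tumors went into 1 pool for the sort and that the cells were loaded as paired lanes, so that the libraries of a group are read here as lanes of 1 pool. The study's methods likewise describe pooled tumors and a single lane, whereas its legend calls the libraries independent samples, and the sources used here do not settle which holds. The p-values speak of the spread between these libraries and not of other mice, and a difference in handling between the pools cannot be told apart from the hairpin. The hairpin was carried by cell pools of 1 tumor line, acted in the tumor cells and not in the T cells measured, and was 1 of the hairpins the study used.

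A T cell that leaves rest passes through a growth phase in which cyclin D and cyclin E kinases inactivate the retinoblastoma family proteins and release E2F factors. E2F factors switch on the S phase genes: the MCM helicase that opens the DNA, the sliding clamp Pcna, and the enzymes that make deoxynucleotides. Mitotic genes follow later, through a CHR element and CCAAT boxes in their promoters that bind the MuvB complex with B-MYB and FOXM1 and the factor NF-Y. Dividing effector cells are known to appear when T cells respond to antigen, and resting T cells hold little mitotic RNA.

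Cells were assigned to classes by RNA: Cd4 cells held a Cd4 UMI and no Foxp3 UMI, Cd8 cells at least 3 UMIs of Cd8a and Cd8b1, and Foxp3 cells a Foxp3 UMI, where a UMI is a unique molecular identifier, 1 counted RNA molecule. Foxp3 codes for the defining factor of regulatory T cells, and Il2ra, a marker not used for the call, stood at 218 to 254 CPM (a gene's UMIs scaled to the same total of UMIs in every library) in Foxp3 cells against 8.88 to 12.3 CPM in Cd4 cells. The 4 libraries held 7030 to 12112 called barcodes and 79224898 to 132820909 RNA UMIs, and 4386 to 9577 cells kept at least 200 genes and at most 5% mitochondrial UMIs. Over all libraries the classes comprised 1127 to 2354 Cd4, 1500 to 3830 Cd8 and 337 to 566 Foxp3 cells per library. Cells over the upper limit of 3000 genes, which the study's methods removed, made up 20.2 to 25.2% of these cells, and 80.7 to 90.5% of them scored as doublets, droplets with more than 1 cell. They were kept in the main values and left out in a parallel set. A pair of libraries shared 17 to 35 barcodes. Cd276 had 9 to 11 UMIs per library, which checks nothing here, since the sort removed the tumor cells.

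The CHR element, the CCAAT box and E2F sites were counted in the members' promoters. RefSeq promoters (GRCm38.p6, 250 bases before to 50 after the start) were found for 36 of 44 members, and 3 kinds of element were searched on both strands: the CHR element TTTGAA, the CCAAT box, and E2F sites, for which the word TTCCCGC, the word TTGGCGC, the word TTCGCGC and the word TTGCCGC were used. TTTGAA stood in 15 of 20 mitotic promoters (75.0%), in 1 of 14 S phase promoters (7.14%) and in 17.9% of all 32851 promoters of this length. CCAAT stood in 18 of 20 mitotic (90%), 8 of 14 S phase (57.1%) and 37.4% of all promoters. An E2F word stood in 3 of 20 mitotic (15.0%), 7 of 14 S phase (50%) and 9.57% of all promoters. Birc5, Nusap1, Ccne1, Dut, E2f1, Tk1 and Tyms held 0 of these elements in this window. The E2F word TTGGCGC read on the other strand ends in CCAA and can share bases with a CCAAT box. A match is a run of letters and not a measured binding site. The 4 promoters below are shown because they stand for the patterns in the values: Ccnb2 and Mki67 are mitotic members that were higher, Mcm6 is the S phase helicase subunit that was higher while most MCM genes were not, and Kif23 is the mitotic member that went the other way. They lie on the minus strand at chr9:70421505-70421804 (Ccnb2), chr7:135716330-135716629 (Mki67), chr1:128359656-128359955 (Mcm6) and chr9:61946750-61947049 (Kif23), and capitals mark the elements.
Ccnb2: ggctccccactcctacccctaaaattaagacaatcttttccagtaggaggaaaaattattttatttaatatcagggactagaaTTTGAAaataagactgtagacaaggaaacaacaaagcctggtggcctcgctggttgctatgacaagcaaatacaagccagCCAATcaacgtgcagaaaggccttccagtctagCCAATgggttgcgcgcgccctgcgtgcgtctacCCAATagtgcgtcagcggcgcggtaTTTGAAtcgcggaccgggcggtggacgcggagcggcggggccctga
Mki67: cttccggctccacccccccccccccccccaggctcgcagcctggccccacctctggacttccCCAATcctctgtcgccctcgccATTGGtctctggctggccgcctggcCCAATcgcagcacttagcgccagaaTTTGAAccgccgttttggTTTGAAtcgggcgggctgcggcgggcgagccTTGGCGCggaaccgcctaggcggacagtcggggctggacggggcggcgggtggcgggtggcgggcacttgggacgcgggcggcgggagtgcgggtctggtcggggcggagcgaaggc
Mcm6: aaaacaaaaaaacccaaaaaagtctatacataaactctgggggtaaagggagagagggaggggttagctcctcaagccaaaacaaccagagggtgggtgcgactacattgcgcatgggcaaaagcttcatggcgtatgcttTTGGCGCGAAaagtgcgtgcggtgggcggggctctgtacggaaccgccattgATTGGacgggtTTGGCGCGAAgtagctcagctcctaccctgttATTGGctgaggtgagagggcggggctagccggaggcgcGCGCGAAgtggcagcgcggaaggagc
Kif23: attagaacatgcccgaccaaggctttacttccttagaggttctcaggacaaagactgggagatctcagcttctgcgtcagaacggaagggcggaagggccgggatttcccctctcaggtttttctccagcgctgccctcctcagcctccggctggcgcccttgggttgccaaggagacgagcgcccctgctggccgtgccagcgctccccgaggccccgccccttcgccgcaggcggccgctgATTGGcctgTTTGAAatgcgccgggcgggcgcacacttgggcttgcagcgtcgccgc
The Ccnb2 promoter held 2 CHR elements and 3 CCAAT boxes, the Mki67 promoter 2 and 3 with 1 E2F word, and the Mcm6 promoter 0 CHR elements, 2 CCAAT boxes and 5 E2F words. The Mcm6 E2F words at positions -109 and -106 from the start, read on opposite strands, share bases, as do those at -46 and -43. The Kif23 promoter held 1 CHR element, at position 2 from the start, and 1 CCAAT box.

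In Cd8 cells mitotic RNA was higher in the knockdown libraries, across cyclins, kinases, kinetochore genes and most spindle genes, while fewer of the S phase genes were called. A gene was called higher or lower at an adjusted p under 0.05 in edgeR's quasi-likelihood test over all genes and a log2 fold change of 1 or more in size, and "rose" is used for called genes. Of 44 members 19 rose and 0 were called lower, where 8.45% of the 12633 genes tested were called higher and 1.5% lower. At an unadjusted p under 0.05 3 members were lower, and DESeq2 called 17 higher and 0 lower. On the adjusted p alone 30 members were higher and 3 lower, against a background of 25.1% and 24.3%. The median log2 fold change was 0.90 over the members and 0.00043 over all genes. In these sums over a class, a change in the number of dividing cells and a change in RNA per cell cannot be told apart. With scored doublets left out 10 of 40 members tested rose, and the median was 0.33. How many of all genes were called in that setting is not given here.

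The mitotic cyclins and kinases of Cd8 cells summed to 3.84 and 3.61 CPM in the controls and 14.3 and 12.6 CPM in the knockdown libraries. Ccnb2, a cyclin B, stood at 0.345 and 0.731 CPM in the sh_NC libraries and 4.95 and 2.86 CPM in the sh_B7-H3 (1) libraries, a log2 fold change of 2.73 ± 0.32 (SE; adjusted p = 2.84e-06). Ccnb1, the other cyclin B, had 0.322 and 0.585 CPM against 1.65 and 1.72 CPM (1.81 ± 0.33, adjusted p = 0.000239). Cdk1, the kinase that both cyclins activate, had 1.13 and 0.804 CPM against 3.51 and 4.27 CPM (1.93 ± 0.22, adjusted p = 2.23e-06). For each of the 3 genes both knockdown libraries lay above both controls. Ccna2, a cyclin A, and Aurkb, the kinase of the chromosomal passenger complex, rose as well, by 1.92 and 2.20 on the log2 scale. Plk1 and Aurka, 2 further kinases of mitotic entry, were not called at 0.58 and 0.28. Counts were low: Ccnb2 rested on 15 and 30 control UMIs and 69 and 55 knockdown UMIs, and with scored doublets left out its log2 fold change was 1.04 (adjusted p = 0.103). Cdk1 and Ccnb1 kept their calls in that setting, Cdk1 at 1.99 (adjusted p = 8.29e-06) and Ccnb1 at 1.25 (adjusted p = 0.0382).

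Of the 7 genes for the kinetochore, the passenger complex and the spindle checkpoint, 5 rose in Cd8 cells, where 8.45% of all genes were called higher. Birc5, which codes for the passenger protein survivin, had 1.10 and 0.95 CPM in the controls and 6.38 and 4.11 CPM in the knockdown libraries (2.22 ± 0.22, adjusted p = 5.13e-07). The checkpoint kinases Bub1 and Bub1b rose by 2.01 and 1.85 on the log2 scale, and the kinetochore proteins Cenpe and Cenpf by 1.10 and 1.52. Cenpa, the histone H3 variant that marks centromeres, was measured more deeply, at 14.6 and 15.1 CPM against 32.4 and 28.7 CPM. Its log2 fold change of 0.93 ± 0.07 (adjusted p = 5.95e-09) stayed just under the fold limit, and over the alternatives it ran from 0.81 to 1.12. Cdca8, the passenger protein borealin, had 2.53 and 3.09 CPM against 4.59 and 3.95 CPM (0.50 ± 0.17, adjusted p = 0.0221), and without scored doublets its log2 fold change was -0.12.

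Of the 4 spindle genes 3 rose in Cd8 cells, where 8.45% of all genes were called higher. Kif11, the motor that pushes the spindle poles apart, had 0.621 and 0.731 CPM against 2.08 and 4.16 CPM (2.17 ± 0.30, adjusted p = 1.66e-05). Nusap1 and Tpx2, which bind spindle microtubules, rose by 2.49 and 1.57. Kif23, a motor of the central spindle needed for the final cut between daughter cells, went the other way. It had 22.4 and 21.2 CPM in the control libraries and 13.04 and 13.11 CPM in the knockdown libraries, without overlap, a log2 fold change of -0.83 ± 0.07 (adjusted p = 7.98e-08) that fell short of the fold limit. The 4 spindle genes, most of whose RNA was Kif23, summed to 24.5 and 22.99 CPM in the controls and 21.2 and 22.6 CPM in the knockdown libraries. Kif23 was also lower without scored doublets, at -0.86 (adjusted p = 1.71e-07).

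Mki67, whose protein coats mitotic chromosomes and serves as the usual proliferation marker, stood at 1.66 and 1.24 CPM in control and 9.60 and 8.48 CPM in knockdown Cd8 cells. Its log2 fold change of 2.53 ± 0.16 had the smallest adjusted p of the called members, 2.08e-09. Top2a, the topoisomerase that untangles sister chromatids, had 7.20 and 6.16 CPM against 17.34 and 17.9997 CPM (1.31 ± 0.10, adjusted p = 1.06e-08). Both genes rose in every alternative run for Cd8 cells, over a range of 1.93 to 2.76 for Mki67 and 1.16 to 1.45 for Top2a. Among the partners of the anaphase-promoting complex, the ubiquitin ligase that ends mitosis, Ube2c had 0.713 and 0.804 CPM against 5.38 and 3.43 CPM (2.40 ± 0.24, adjusted p = 5.46e-07). Cdc20, the ligase's activator, had 2.51 and 3.00 CPM against 3.30 and 3.28 CPM (0.17 ± 0.17, adjusted p = 0.458). Cdca3, listed in the same role group without being counted as a partner of this complex, was not called at 0.99 (adjusted p = 0.0127).

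S phase genes of Cd8 cells were called less often than mitotic genes, and the fold changes of their functions overlapped. In nucleotide supply 3 of 5 genes rose: thymidylate synthase Tyms, from 6.55 and 5.65 CPM to 13.04 and 13.79 CPM, the ribonucleotide reductase subunit Rrm2 (log2 fold change 1.00) and thymidine kinase Tk1 (1.44). Dut, which removes dUTP, had 63.9 and 61.0 CPM against 82.5 and 88.9 CPM (0.37 ± 0.04, adjusted p = 3.02e-06), and Rrm1, the other reductase subunit, 12.1 and 11.6 CPM against 14.2 and 14.0 CPM (0.15 ± 0.08, adjusted p = 0.125). Of the 9 genes of the replication fork and of origin licensing 0 were called. Mcm6 had 28.9 and 29.8 CPM against 43.2 and 43.5 CPM (0.47 ± 0.05, adjusted p = 5.58e-07). The other 5 subunits of the same helicase ring lay between -0.28 (Mcm3, adjusted p = 0.00938) and -0.03 (Mcm4). Pcna had 67.8 and 68.2 CPM against 77.4 and 80.8 CPM (0.13 ± 0.04, adjusted p = 0.00891), and Gins2 and Cdc6 were not called at 0.65 and 0.79. Of the regulators of S phase entry, cyclin E1 (Ccne1) had 6.53 and 6.87 CPM against 5.73 and 6.19 CPM (-0.25 ± 0.12, adjusted p = 0.0947), and E2f1 1.03 and 1.02 CPM against 1.15 and 1.46 CPM (0.27 ± 0.27, adjusted p = 0.436). Over the 17 S phase members the median was 0.27 with 3 called, and over the 23 mitotic members it was 1.81 with 16 called. Of all genes 8.45% were called higher.

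**Figure D1:**
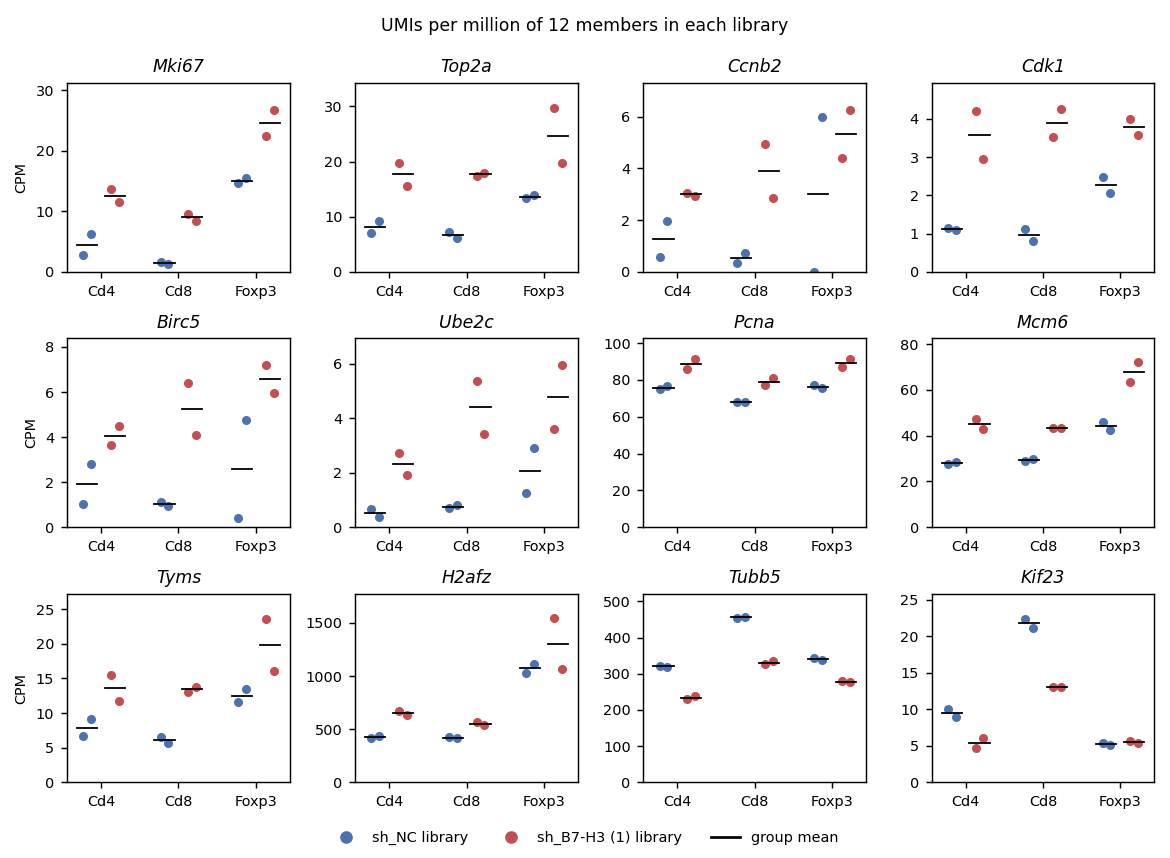
Each panel plots the level (CPM, vertical axis from 0) of 1 of 12 members in Cd4, Cd8 and Foxp3 cells, with a point per library (blue sh_NC, red sh_B7-H3 (1)) and a bar at the group mean. In Cd8 cells the knockdown points of Mki67 (9.60 and 8.48 CPM) lie far above the control points (1.66 and 1.24 CPM), while those of Kif23 (13.04 and 13.11 CPM) and Tubb5 lie below.

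The 4 broadly expressed members moved in both directions in Cd8 cells, and 0 passed the fold limit, although all 4 had an adjusted p under the threshold. Hmgb2, a chromatin protein, had 152 and 161 CPM against 323 and 312 CPM (0.93 ± 0.03), and H2afz, the histone variant H2A.Z, 423 and 422 CPM against 566 and 538 CPM (0.29 ± 0.03). Stmn1, which destabilizes microtubules, had 15.7 and 13.2 CPM against 24.4 and 26.5 CPM (0.73 ± 0.08). The beta-tubulin gene Tubb5 was lower, at 454 and 458 CPM against 326 and 334 CPM (-0.56 ± 0.03, adjusted p = 6.7e-11). Mcm3 was, beside Kif23 and Tubb5, the third member that was lower on the adjusted p alone.

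In Cd4 cells the same direction held with fewer calls. Of 41 members tested 13 rose and 0 were called lower, where 8.6% of 11982 genes were called higher and 2.47% lower. At an unadjusted p under 0.05 6 members were lower, and DESeq2 called 9 higher and 0 lower. On the adjusted p alone 23 were higher and 5 lower, against 23.5% and 22.8% of all genes. The median was 0.58 against -0.0008 over all genes. It was 1.00 over the 21 mitotic members tested, of which 11 rose, and 0.19 over the 16 S phase members, of which 2 rose (Tk1 and Ccne2). Bub1, Cdc6 and Plk1 were not tested, since their counts were too low. The count depended on the libraries and the cells: without sh_NC library 1 it was 7, without scored doublets 6, and with a stricter lineage call 8. No all-gene share is given here for these settings.

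For several mitotic genes of Cd4 cells control library 2 lay above control library 1. Mki67 had 2.79 and 6.23 CPM in the controls and 13.6 and 11.5 CPM in the knockdown libraries (1.39 ± 0.22, adjusted p = 2.59e-05), and it came under the fold limit without control library 1 (0.90) and with the stricter lineage call (0.68). Ccnb2 had 0.576 and 1.97 CPM against 3.07 and 2.94 CPM (1.17 ± 0.38, adjusted p = 0.0168), and without control library 1 its log2 fold change was 0.50 (adjusted p = 0.273). Ccnb1 had 0.672 and 1.26 CPM against 2.04 and 1.90 CPM (0.94 ± 0.37, adjusted p = 0.041). The groups of these 3 genes did not overlap, and Ccnb1 stayed under the fold limit. Over the alternatives Ccnb1 ran from 0.34 to 1.42, and under the 3000-gene limit it stood at 0.62 (adjusted p = 0.271). Cdk1 rose from 1.15 and 1.09 CPM to 4.20 and 2.94 CPM (1.53 ± 0.30, adjusted p = 0.000251), and Top2a from 7.06 and 9.24 CPM to 19.8 and 15.6 CPM (1.00 ± 0.14, adjusted p = 3.62e-06). Top2a stood at the fold limit and came under it in 5 alternatives, down to 0.82 without control library 1 and 0.85 without knockdown library 1. The checkpoint kinase gene Bub1b had the highest log2 fold change of the members in these cells, 2.21 ± 0.32, with 0.624 and 1.80 CPM against 6.25 and 5.62 CPM.

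Kinetochore and spindle genes of Cd4 cells were called for 5 of 10 tested, where 8.6% of all genes were called higher. Kif11 had 0.624 and 1.20 CPM against 3.86 and 2.85 CPM (1.77 ± 0.34, adjusted p = 0.000203), and Ube2c 0.672 and 0.383 CPM against 2.73 and 1.90 CPM (1.97 ± 0.39, adjusted p = 0.000298). Cenpa had 21.5 and 24.6 CPM against 47.8 and 45.3 CPM (0.91 ± 0.08, adjusted p = 2.57e-09), with 0.81 to 1.09 over the alternatives. Cdca8, with 2.45 and 3.66 CPM against 4.20 and 2.51 CPM, overlapped between the groups (0.01 ± 0.28, adjusted p = 0.992), as did Cdca3, Cenpf and Tpx2, with log2 fold changes of -0.10 to 0.34. Cdc20 had 1.82 and 1.53 CPM against 2.84 and 2.59 CPM (0.58 ± 0.29, adjusted p = 0.105). Kif23 was again lower, at 9.99 and 8.96 CPM against 4.66 and 6.05 CPM (-0.91 ± 0.16, adjusted p = 9.3e-05). Over the alternatives it ran from -1.14 to -0.70, so that its lowest value passed the fold limit.

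Among the S phase genes of Cd4 cells, Mcm6 was higher, at 27.7 and 28.3 CPM against 47.2 and 43.0 CPM (0.58 ± 0.07, adjusted p = 6.37e-07). Mcm3 and Mcm7 were lower on the adjusted p alone, by -0.34 and -0.36, so that subunits of 1 hexamer differed in sign. Pcna had 74.8 and 76.7 CPM against 86.1 and 91.2 CPM (0.13 ± 0.05, adjusted p = 0.0488), Dut 65.6 and 68.5 CPM against 108 and 101 CPM (0.54 ± 0.05, adjusted p = 1.96e-08), and Rrm1 12.6 and 14.0 CPM against 14.1 and 15.3 CPM (0.05 ± 0.11, adjusted p = 0.734). Cyclin E2 (Ccne2) rose by 1.22, whereas Ccne1 had 2.98 and 4.21 CPM against 3.18 and 2.94 CPM (-0.33 ± 0.25, adjusted p = 0.303) and E2f1 1.44 and 0.929 CPM against 1.59 and 1.47 CPM (0.24 ± 0.36, adjusted p = 0.614). Of the broadly expressed members H2afz was higher, at 420 and 433 CPM against 675 and 630 CPM (0.51 ± 0.04, adjusted p = 1.48e-10), and Tubb5 lower, at 321 and 319 CPM against 230 and 238 CPM (-0.56 ± 0.04, adjusted p = 9.68e-11). Stmn1 was lower in Cd4 cells (-0.35, adjusted p = 0.00107), where it had been higher in Cd8 cells.

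Summed over the 23 mitotic members, Cd4 cells held 56.4 and 75.8 CPM in the controls and 133 and 119 CPM in the knockdown libraries, a ratio of means of 1.91. In Cd8 cells the sums were 61.9 and 60.1 CPM against 124 and 113 CPM, a ratio of 1.94. The 17 S phase members summed to 288 and 297 CPM against 371 and 362 CPM in Cd4 cells and to 289 and 280 CPM against 333 and 356 CPM in Cd8 cells, ratios of 1.25 and 1.21. These are sums of CPM, and TMM scaling set the fitted log2 fold changes of knockdown over control lower than the plain CPM by 0.10 in Cd4 and 0.09 in Cd8 cells. The groups shared no value in any of these sums. Single members weighed heavily in the mitotic sums. In Cd4 cells Cenpa held 21.5 and 24.6 CPM in the controls and 47.8 and 45.3 CPM in the knockdown libraries. Kif23 held 9.99 and 8.96 CPM against 4.66 and 6.05 CPM.

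**Figure D2:**
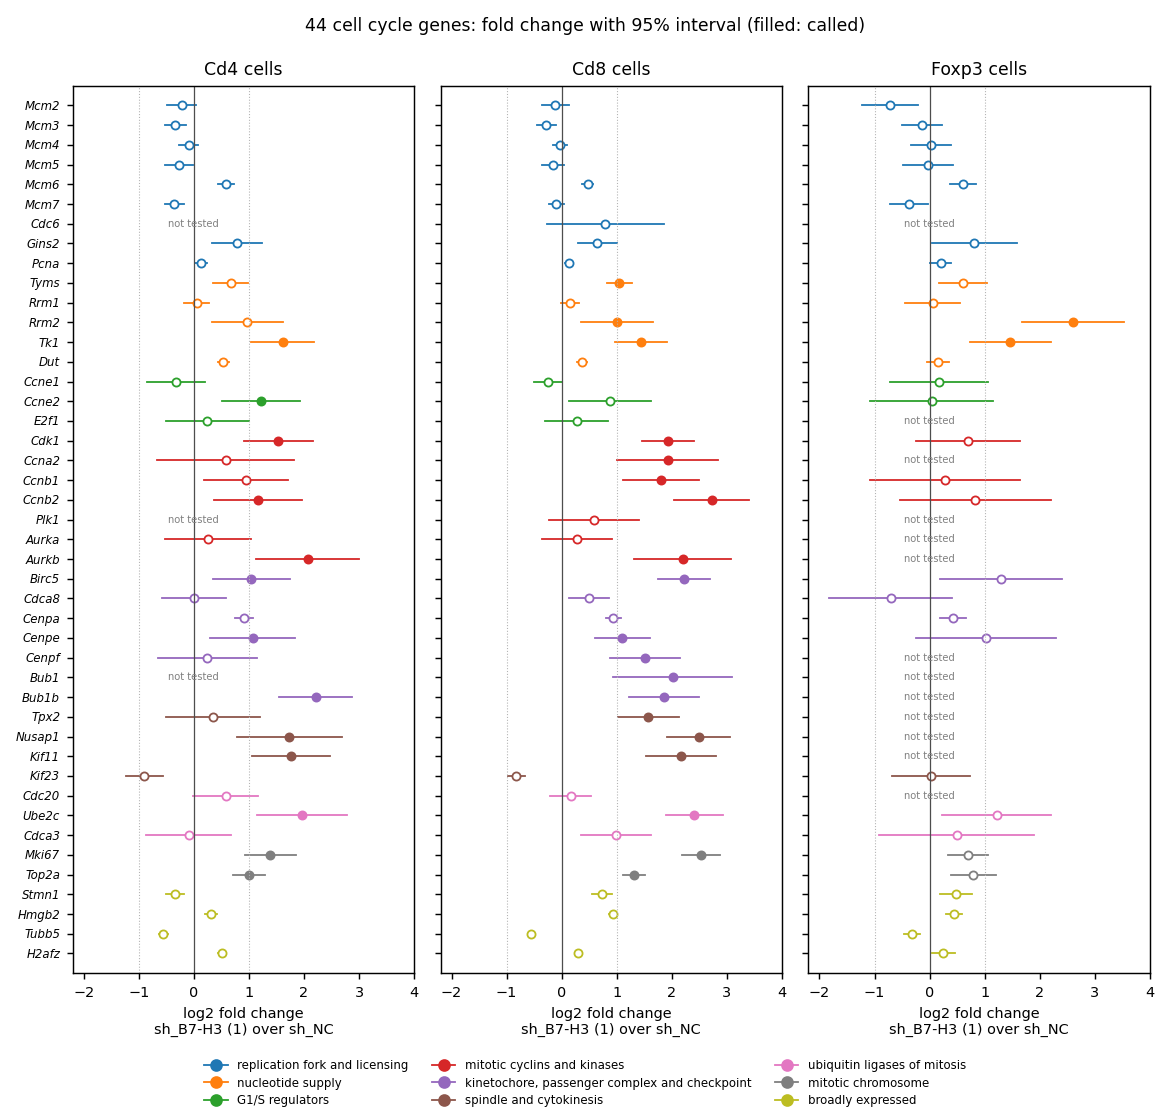
For each of the 44 members, grouped by role and color, the points give the log2 fold change of sh_B7-H3 (1) over sh_NC in Cd4, Cd8 and Foxp3 cells with its 95% interval, and filled points are called. The mitotic groups lie right of 0 in Cd8 cells with Kif23 (-0.83) as the exception, whereas the MCM genes lie around 0 except Mcm6 (0.47).

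In Foxp3 cells the 23 mitotic members summed to 89.7 and 122 CPM in the controls and 158 and 154 CPM in the knockdown libraries, a ratio of means of 1.47, and few members were called. Of 31 members tested 2 rose and 0 were called lower, where 1.17% of 10183 genes were called higher and 0.236% lower. At an unadjusted p under 0.05 14 members were higher and 3 lower, and DESeq2 called 0 in either direction. On the adjusted p alone 8 were higher and 1 was lower, against 4.61% and 3.54% of all genes. The median was 0.42 against 0.0055 over all genes. The 13 members not tested, with counts too low, included Aurka, Aurkb, Kif11, Cdc20, E2f1 and Nusap1.

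The called members of Foxp3 cells were both of nucleotide supply. Rrm2 had 1.03 and 1.24 CPM (5 and 6 UMIs) in the controls and 7.60 and 6.85 CPM (19 and 23 UMIs) in the knockdown libraries, a log2 fold change of 2.60 ± 0.45 (adjusted p = 0.000655). Tk1 had 2.89 and 2.90 CPM against 7.60 and 8.63 CPM (1.47 ± 0.35, adjusted p = 0.0116). Neither was called without scored doublets, without cells that held markers of other cell types or with the stricter lineage call, settings in which 0 members rose. Mki67 stood at 14.6 and 15.5 CPM against 22.4 and 26.8 CPM (0.70 ± 0.18, adjusted p = 0.0167), and Top2a at 13.4 and 13.9 CPM against 29.6 and 19.7 CPM (0.79 ± 0.20, adjusted p = 0.0147). Both stayed under the fold limit without overlap of the groups. Cenpa had 38.4 and 43.2 CPM against 54.8 and 56.3 CPM (0.42 ± 0.12, adjusted p = 0.0274), and Mcm6 45.8 and 42.4 CPM against 63.6 and 72.1 CPM (0.61 ± 0.12, adjusted p = 0.00168).

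Some mitotic genes of Foxp3 cells differed widely between the control libraries. Ccnb2 had 0 UMIs in control library 1 and 29 in control library 2 (6.00 CPM), against 4.402 and 6.252 CPM in the knockdown libraries (0.83 ± 0.66, adjusted p = 0.522). The floor of 3 UMIs in the first of these libraries, with 4848967 UMIs, allows less than 1 CPM. Cdk1 had 2.47 and 2.07 CPM against 4.00 and 3.57 CPM, and Ube2c 1.24 and 2.90 CPM against 3.60 and 5.95 CPM, neither called. Pcna (77.1 and 75.7 CPM against 87.2 and 91.1 CPM), Dut (77.5 and 77.8 CPM against 85.2 and 89.6 CPM) and Rrm1 (13.6 and 12.4 CPM against 9.60 and 17.0 CPM) were not called either. Cdca8 and Ccnb1 overlapped between the groups, with 2.06 and 6.83 CPM against 4.00 and 1.79 CPM for Cdca8. Kif23 had 5.36 and 5.17 CPM against 5.60 and 5.36 CPM (0.03 ± 0.34, adjusted p = 0.977), so the lower level seen in the other classes was not detectable here. Tubb5 was lower, at 343 and 339 CPM against 279 and 277 CPM (-0.32 ± 0.07, adjusted p = 0.0046), and H2afz overlapped, with 1033 and 1111 CPM against 1542 and 1066 CPM.

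Few members were called as different in level between the classes. In 1 fit of all class sums with the library as a block, 2 of 41 members were called higher in Cd8 than in Cd4 cells and 1 lower, where 1.71% and 3.97% of 12709 genes were called. Kif23 was higher in Cd8 cells by 1.36 ± 0.10 and Ccne1 by 1.07 ± 0.13, and Bub1b was lower by -1.45 ± 0.27 on the log2 scale. Between Foxp3 and Cd4 cells 2 of 41 members were higher (Ube2c by 1.28 ± 0.38, Mki67 by 1.21 ± 0.32) and 1 lower (Bub1b, -1.69 ± 0.42), against 5.81% and 2.81% of all genes. Both higher calls were lost with the stricter lineage call and without cells with markers of other types. Bub1b was thus called higher in Cd4 cells than in either other class over the 4 libraries together. Against Foxp3 cells the controls were mixed, with 0.624 and 1.80 CPM in Cd4 and 0.825 and 0.827 CPM in Foxp3 cells. The gap was wider in the knockdown libraries, at 6.25 and 5.62 CPM in Cd4 against 1.20 and 1.19 CPM in Foxp3 cells. In Foxp3 cells Bub1b had only 3 or 4 UMIs per library.

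The knockdown difference itself differed between Cd8 and Cd4 cells for 2 of 41 members, with 0.779% of all genes called in either direction. This fit used group means per class without a library block. Class sums of the same library thus entered it as independent samples, which they are not. For Mki67 the log2 fold change was 1.13 ± 0.31 greater in Cd8 cells (adjusted p = 0.0425). Under the 3000-gene limit, where this difference was not tested, the log2 fold changes of Mki67 stood closer, at 2.48 in Cd8 and 1.92 in Cd4 cells. The difference for Stmn1 was 1.08 ± 0.13 (adjusted p = 9.93e-06). Hmgb2 differed by 0.62 ± 0.07 (adjusted p = 9.33e-06), under the limit of 1. Mki67 in control cells stood at 2.79 and 6.23 CPM in Cd4 but 1.66 and 1.24 CPM in Cd8 cells. edgeR called 0 members when scored doublets or sh_NC library 2 were left out, and 1 when either knockdown library was left out. Between Foxp3 and Cd4 cells the difference of the effects was called for 0 of 41 members by edgeR, against 2.26% of all genes. At an unadjusted p under 0.05 4 members had a greater and 3 a smaller effect in Foxp3 cells. On the adjusted p alone the effect was smaller for Dut (-0.36) and Cenpa (-0.46) and greater for Stmn1 (0.86) and Tubb5 (0.26).

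Nkg7, a granule protein of cytotoxic cells, divided the classes into cells with at least 3 Nkg7 UMIs and the rest. The share of Nkg7-high cells was 9.30 and 11.6% of Cd4 cells in the controls and 56.2 and 54.2% in the knockdown libraries. It was 80.8 and 83.9% against 92.2 and 91.9% in Cd8 cells and 5.48 and 6.33% against 18.1 and 20.6% in Foxp3 cells. The groups did not overlap (exact permutation p = 0.333 for each, the smallest that 2 against 2 libraries allow). Within Cd4 cells no member was called on either side of this division. Among Nkg7-high Cd4 cells edgeR called 0 of 31 members higher (0.665% of all genes), with 4 higher and 2 lower at an unadjusted p under 0.05, and DESeq2 called 0. Among the other Cd4 cells 0 of 35 were called (0.835% of all genes), with 7 higher and 2 lower at an unadjusted p under 0.05 and 0 by DESeq2. The medians were 0.12 and 0.11. The share of Nkg7-high cells itself differed between the groups, and the share of all genes called was lower on both sides than in all Cd4 cells (8.6%), so nothing about the members in particular is read from these counts. The Nkg7-high side held 219 and 228 control cells.

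In Cd8 cells members were called mainly on the Nkg7-high side, which held most of the class. There 18 of 44 members rose (8.22% of all genes), with a median of 0.89, and 16 of the 23 mitotic members were among them. With scored doublets left out 9 of 39 rose, with no all-gene share given here for that setting. On the other side, with 117 and 166 knockdown cells, 1 of 21 tested members rose (0.592% of all genes), Stmn1 by 1.07 ± 0.28. That call was lost by DESeq2, with RLE scaling and when scored doublets were left out, each of which gave 0. Whether the Nkg7 division changes the effect was not tested as an interaction.

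The share of cells with mitotic RNA was counted without a background share, so that it is not read as a share of dividing cells. Barcodes with at most 100 UMIs, which hold free RNA, had mitotic members at 70.1 and 76.8 CPM in the controls and 109 and 109 CPM in the knockdown libraries, beside 65.0 and 67.2 CPM and 121 and 110 CPM in the kept cells, and the part of free RNA in these shares was not tested. Each cell was thinned to 2000 UMIs, and a cell was counted when it held at least 2 UMIs over the 23 mitotic members. A few members weighed heavily in this count. Of 358 cells counted over all classes and libraries, 218 still held 2 UMIs without Cenpa's own, 271 without Top2a's and 304 without Kif23's. Of Cd4 cells 22 of 2351 and 25 of 1959 were counted in the controls (0.936 and 1.28%) and 34 of 1114 and 44 of 1414 in the knockdown libraries (3.05 and 3.11%), a ratio of means of 2.79. Of Cd8 cells it was 1.02 and 1.02% against 3.34 and 2.31%, a ratio of 2.77. Of Foxp3 cells it was 1.96 and 3.27% against 5.12 and 4.34%, a ratio of 1.81. In each class both knockdown libraries lay above both controls (exact permutation p = 0.333 each, the smallest possible). Without thinning the shares were 9.39 and 10.2% against 21.1 and 20.7% in Cd4 cells, 14.4 and 14.5% against 20.0 and 18.3% in Cd8 cells, and 17.7 and 20.0% against 23.1 and 23.6% in Foxp3 cells.

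**Figure D3:**
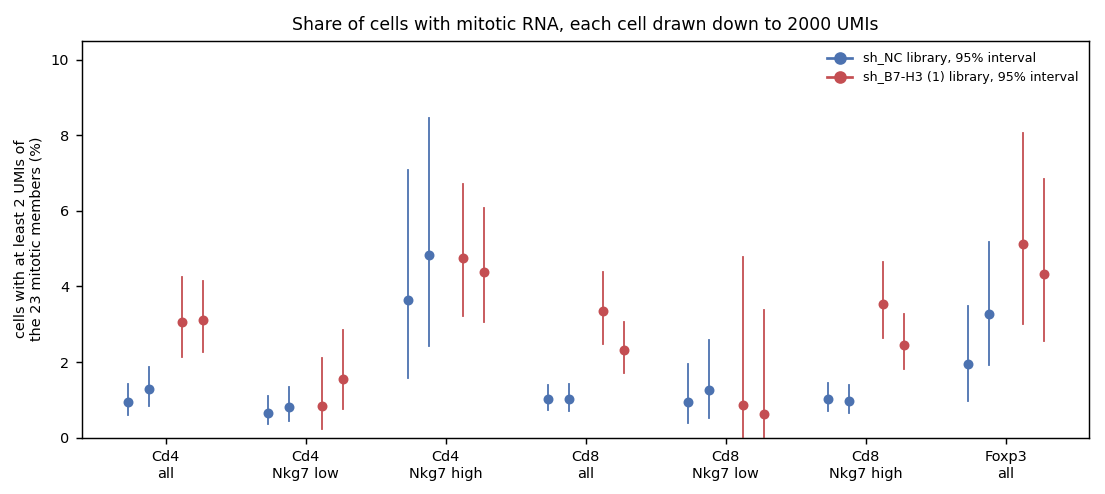
The share of cells (%) with at least 2 mitotic UMIs after thinning to 2000 UMIs is plotted per library (blue sh_NC, red sh_B7-H3 (1)) with exact 95% binomial intervals, which cover counting error only. Cd4 cells as a whole go from 0.936 and 1.28% to 3.05 and 3.11%, their Nkg7-high cells stand at 3.65 to 4.82% in all 4 libraries, and the other Cd4 cells at 0.657 and 0.809% against 0.830 and 1.56%, with a share of Nkg7-high cells that itself differs between the groups.

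Divided by Nkg7, the shares of Cd4 cells lay apart between the sides, while those of the groups overlapped on the Nkg7-high side. Nkg7-high Cd4 cells counted 3.65 and 4.82% in the controls and 4.75 and 4.39% in the knockdown libraries, and the other Cd4 cells 0.657 and 0.809% against 0.830 and 1.56%. The Nkg7-high side held 219 and 228 control cells, so its control shares rest on few counted cells, and the overlap is not read as equal shares. In Nkg7-high Cd8 cells the groups did not overlap, with 1.04 and 0.970% against 3.54 and 2.46%, while the other Cd8 cells had 0.955 and 1.26% (7 of 733 and 7 of 554) against 0.877 and 0.613% (1 of 114 and 1 of 163), too few to compare. S phase RNA, counted the same way over the 17 S phase members, was more widespread, with 12.3 and 11.3% against 16.8 and 15.7% of Cd4 cells and 10.8 and 11.3% against 13.4 and 15.2% of Cd8 cells. The difference of the means was 4.45 percentage points in Cd4 cells and 3.25 in Cd8 cells, and the ratio of the means 1.38 and 1.29. The mitotic and S phase differences were not tested against each other. Of the counted cells of knockdown libraries 38.2 to 53.2% scored as doublets in the Cd4 and Cd8 classes, against 23.6 to 29.7% of the remaining cells and 13.6 to 34.3% of the counted control cells. Leaving scored doublets out, the difference of the shares was 1.33 percentage points in Cd4 cells in place of 1.98. For Cd8 and Foxp3 cells this difference without scored doublets is not given here. Of the counted Cd8 cells 42.0 and 53.2% scored as doublets in the knockdown libraries, against 28.2 and 34.3% in the controls. The part of doublets in the shares was not tested further.

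How closely each member followed mitotic RNA from cell to cell was measured over the thinned cells of all classes. For each member its UMIs per cell were compared between the 218 to 358 cells with at least 2 UMIs of the other mitotic members and the remaining cells. The ratio was pooled over libraries and classes, which differ in their levels and in their shares of such cells, and it varied widely between libraries. Ccnb2 had 40 of its 54 UMIs in these cells, a ratio of 155 (70.4 to 231 over the libraries), and Birc5 43 of 73, a ratio of 77.7 (31.6 to 108). Ube2c stood at 30.7, Cdca8 at 16.7, Ccnb1 at 16.1, Mki67 at 13.5 (2.41 to 15.7), Cdc20 at 11.97 and Kif11 at 11.2. Cenpa, Cdk1 and Top2a stood lower, at 6.23, 5.53 and 5.42. Of the S phase members Cdc6 (35.5, on 10 UMIs) and Tk1 (8.68) passed a ratio of 5. E2f1 (4.997), Tyms (4.92), Rrm2 (4.52) and Gins2 (4.26) lay just under it. Pcna (1.98, 1.62 to 2.27 over the libraries), Dut (2.13, 1.42 to 2.35) and Mcm6 (1.82, 1.30 to 1.95) stood lower but above 1 in every library, and Mcm7 (1.20, 0.640 to 1.55) did not. Of the broadly expressed members Stmn1 stood at 10.2 (8.77 to 12.4), Hmgb2 at 4.75 (3.59 to 6.30) and Tubb5 at 1.08 (0.962 to 1.40). Kif23 stood at 1.07 (0.595 to 2.85). Of its 539 UMIs 9 lay in cells with mitotic RNA, although its promoter, shown above, holds a CHR element and a CCAAT box. Kif23 overlaps no other annotated gene (GENCODE M21, chromosome 9, 61915905 to 61946774, minus strand).

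The ratio was compared with the knockdown difference, member by member. Of the 24 members with a ratio over 5, all 24 had a log2 fold change above 0 in Cd8 cells and 17 rose, while of the remaining 20 members 12 were above 0 and 2 rose. In Cd4 cells 19 of 21 tested members over the ratio were above 0 and 12 rose, against 12 of 20 and 1. Of all genes 8.45% were called higher in Cd8 and 8.6% in Cd4 cells. Across members Spearman's rho between the ratio and the log2 fold change was 0.82 in Cd8 (n = 44), 0.57 in Cd4 (n = 41) and 0.68 in Foxp3 cells (n = 31). These are descriptions across genes that share cells, libraries and depth, and they rest on the pooled ratios. Stmn1 departed from this order in Cd4 cells, with a ratio of 10.2 and a log2 fold change of -0.35.

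**Figure D4:**
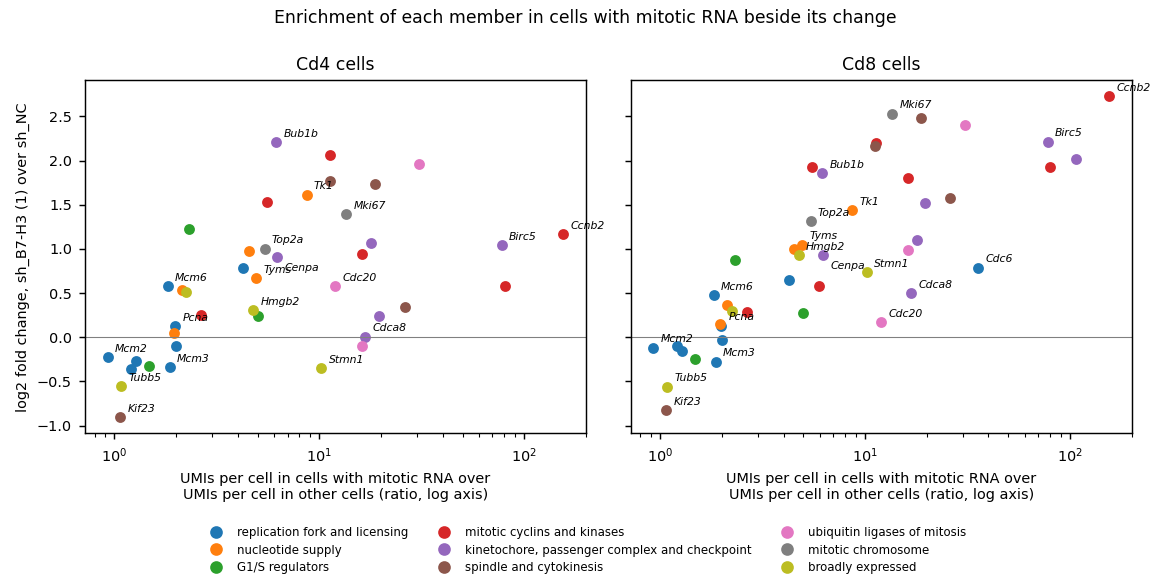
Each point is a member, with its ratio of UMIs per cell between cells with and without RNA of the other mitotic members (horizontal log axis) and its log2 fold change of sh_B7-H3 (1) over sh_NC (vertical axis) in Cd4 and Cd8 cells, colored by role. Ccnb2 (155) lies at the right with the highest Cd8 log2 fold change, 2.73, and Kif23 (1.07) at the lower left with -0.83.

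Further cell cycle genes, 79 symbols in all, held several regulators that rose. In Cd4 cells 12 of 66 tested rose and 0 were called lower (11 lower at an unadjusted p under 0.05), where 8.6% of all genes were called higher. In Cd8 cells 13 of 73 rose and 0 were called lower (10 at an unadjusted p under 0.05), where 8.45% of all genes were called higher. Cdk6, a cyclin D kinase, rose from 28.7 and 33.1 CPM to 140 and 127 CPM in Cd4 cells (2.01 ± 0.06) and from 24.9 and 26.9 CPM to 81.3 and 73.1 CPM in Cd8 cells (1.48 ± 0.05). Cdk4, the other cyclin D kinase, stood at -0.30 (adjusted p = 0.107) in Foxp3 cells. In Cd4 cells under the 3000-gene limit Cdk4 stood at -0.26 (adjusted p = 0.00274). Of the cyclin D genes there, Ccnd3 was at -0.33, Ccnd2 at -0.02 and Ccnd1 at 0.63, none called. Inhibitors of these kinases rose beside Cdk6. Cdkn2a, which codes for p16 and p19ARF, had 1.24 and 1.10 CPM against 10.4 and 10.2 CPM in Cd8 cells (3.04 ± 0.15) and 1.92 and 4.32 CPM against 19.1 and 18.8 CPM in Cd4 cells (2.53 ± 0.20). In Foxp3 cells it was called at 1.94 ± 0.38, but under the 3000-gene limit it stood at 1.23 (adjusted p = 0.139) and was not called. Cdkn2c, p18, rose by 1.97 and 1.87, and Cdkn2b, p15, by 1.70 and 2.95 in Cd4 and Cd8 cells. Cdkn2d, p19, was lower in both, by -0.67 and -0.46 on the adjusted p alone.

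The pocket protein gene Rbl2, whose product p130 holds resting cells out of the cycle, rose by 1.44 in Cd4 and 1.17 in Cd8 cells. The antiproliferative gene Btg3 rose by 1.499 in Cd4 cells and stood at 0.88 in Cd8 cells, and Wee1, the kinase that holds Cdk1 inactive, rose by 1.47 in Cd4 cells and stood at 0.94 in Cd8 cells. Myc, the growth factor-induced transcription factor, was lower in all 3 classes without reaching the fold limit, by -0.73 in Cd4, -0.82 in Cd8 and -0.86 in Foxp3 cells. Under the 3000-gene limit it was called lower in Foxp3 cells, at -1.06 (adjusted p = 0.000937). Of the further mitotic genes 4 of 19 tested rose in Cd4 cells (Racgap1, Ncapg, Cdkn3 and Anln) and 8 of 23 in Cd8 cells (Prc1, Spc24, Ncapg, Cdkn3, Ckap2l, Hmmr, Kif4 and Anln). Of all genes 8.6% were called higher in Cd4 cells and 8.45% in Cd8 cells. In Foxp3 cells Cdkn2a and Ncapg were the 2 called of 57 tested, where 1.17% of all genes were called higher. Under the 3000-gene limit Cdkn3 (1.08, adjusted p = 0.0797) was not called and Anln not tested in Cd4 cells, Spc24 (0.57, adjusted p = 0.0923) was not called and Kif4, Anln, Ckap2l and Hmmr were not tested in Cd8 cells, and Ncapg was not tested in Foxp3 cells.

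Removal of cells over 3000 genes left mitotic members called in Cd4 and Cd8 cells. With the limit 13 of 39 members rose in Cd4 cells and 0 were called lower (8.87% and 2.76% of all genes), 12 of them the same as without it. Birc5 was lost and Rrm2 gained. In Cd8 cells 14 of 41 rose and 0 were called lower (8.21% and 2.23%). Tyms stood at 0.97 (adjusted p = 1.92e-06), just under the fold limit. Rrm2 at 0.89 (adjusted p = 0.0566) and Cenpf at 0.90 (adjusted p = 0.0997) were no longer called, and Bub1 and Ccna2 fell under the filter on low counts. In Foxp3 cells Tk1 rose (1.73) and Mcm2 was called lower (-1.17 ± 0.34, adjusted p = 0.0404) of 23 tested (0.859% and 0.35%). The Tk1 call was lost when any 1 of the 4 libraries was left out, and 0 members rose by DESeq2, without scored doublets, without cells with markers of other types or with the stricter lineage call. The number of members called lower was also 0 in those alternatives, except for 1 without knockdown library 1 and 1 with the stricter lineage call, and it was 0 with cells of up to 10% mitochondrial UMIs. By DESeq2 the counts of members that rose under the limit were 5, 13 and 0, with 0 lower in each class, and at an unadjusted p under 0.05 7 members in Cd4 and 5 in Cd8 cells were lower. Mki67 kept its call with the limit, at 2.48 ± 0.20 in Cd8 and 1.92 ± 0.19 in Cd4 cells. The limit removed 8.07 to 10.8% of Cd4, 12.3 to 20.0% of Cd8 and 10.7 to 20.0% of Foxp3 cells.

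Over all kept cells, those above the limit held 44.9 and 49.8% of the members' summed UMIs in control and 51.5 and 51.0% in knockdown libraries. The same cells held 43.5 and 48.6% of all RNA in control and 51.1 and 49.7% in knockdown libraries, close to those shares. The median member, with each member weighing the same, had 53.5% of its UMIs in them, against 48.2% of all UMIs. In all 4 libraries 27 of 44 members lay above the all-gene share. How many of all genes lay above it is not given here. Cdc6 (59.6 to 88.6%) and Cenpf (64.9 to 79.8%) were at the top and H2afz (42.6 to 47.7%) was at the bottom. Within Cd8 cells mitotic UMIs stood at 34.0 to 40.3% against 26.97 to 36.3% of all UMIs, and within Cd4 cells at 22.4 to 35.8% against 16.9 to 19.6%. Within Foxp3 cells they stood at 31.3 and 36.8% in the controls and 22.7 and 34.9% in the knockdown libraries, against 27.7, 36.8, 22.2 and 36.1% of all UMIs, so that knockdown library 2 lay below its all-gene share. With scored doublets left out the median member's share was 14.8%, against 12.1% of all UMIs.

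**Figure D5:**
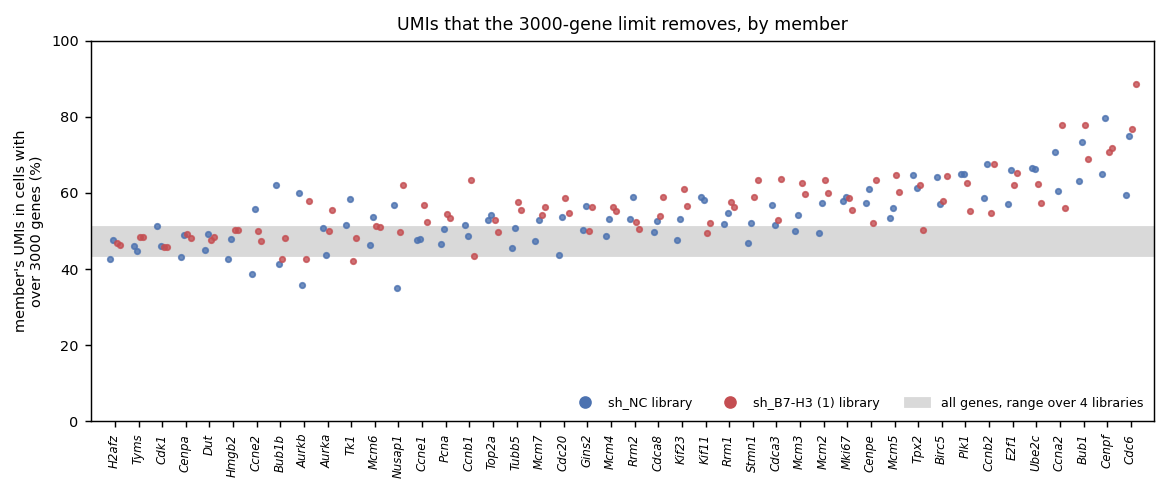
For each of the 44 members the points give, per library (blue sh_NC, red sh_B7-H3 (1)), the percentage of its UMIs that lie in cells with more than 3000 genes, and the gray band is the range of the same share for all genes. The members are ordered by their mean share, and 27 of 44 exceed the all-gene share of each library. A like count over all genes is not given here.

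Other RNA moved with the groups too. Myeloid markers summed to 174 and 191 CPM in control and 621 and 461 CPM in knockdown Cd8 cells, with 10 of 10 markers higher without overlap. In Cd4 cells they summed to 305 and 238 CPM against 532 and 364 CPM, with 8 of 10 higher. In Foxp3 cells they summed to 473 and 216 CPM against 485 and 822 CPM, with 3 of 10 higher. B cell markers were lower in Cd4 cells (207 and 191 against 102 and 99.3 CPM) and in Cd8 cells (214 and 210 against 113 and 119 CPM), nearly all of it Ighm. Tumor and stroma markers, apart from Epcam, were near 0: in Cd8 cells Col3a1 was at 0 in all libraries and Col1a1 at most 0.358 CPM. With cells of at least 3 UMIs of these markers left out, 11 of 39 members rose in Cd4 cells and 20 of 43 in Cd8 cells. No all-gene share is given here for that setting. A cutoff of 3 UMIs does not separate other cell types from T cells that hold some of this RNA. In Cd4 cells of sh_NC library 1 Ighm stood at 203 CPM and Apoe at 173 CPM. The median Cd4 cell held 7106 to 8328.5 UMIs per library. Gamma-delta T cell markers summed to 16.5 and 16.5 CPM against 47.4 and 39.7 CPM in Cd4 cells, with 1 of 3 higher, Tcrg-C1, while Trdc overlapped (11.9 and 13.3 against 13.5 and 7.60 CPM). In Cd8 cells they summed to 17.3 and 18.6 CPM against 48.6 and 43.3 CPM, with Tcrg-C1 and Trdc higher, and Trdv4 was at most 0.341 CPM in both classes. NK cell markers summed to 14.8 and 15.9 CPM against 99.6 and 88.6 CPM in Cd4 cells and to 27.2 and 30.5 CPM against 79.1 and 70.5 CPM in Cd8 cells, with 1 of 3 higher, Eomes, which effector T cells express too. The defining NK genes were near 0, with Ncr1 at 0 in all Cd4 sums and Klrb1c at most 1.10 CPM in either class. Regulatory T cell markers, mostly Ikzf2, summed to 68.1 and 86.3 CPM against 235 and 226 CPM in Cd4 cells and to 25.9 and 29.6 CPM against 115 and 105 CPM in Cd8 cells, in which Foxp3 is 0 by the class rule. Erythroid RNA stood at 20.6 CPM in Cd4 cells of sh_NC library 1, the library without which 7 members rose there, and at 0.795 to 2.16 CPM in the other Cd4 sums. CD8 lineage markers in Cd4 cells, mostly Runx3, summed to 104 and 111 CPM against 328 and 323 CPM. Runx3 alone was at 76.2 and 83.7 CPM against 281 and 278 CPM. Cd8a was at 8.31 and 7.98 CPM against 21.2 and 20.7 CPM, and Cd8b1 at 19.1 and 19.2 CPM against 26.2 and 24.7 CPM. The effector markers were at 1960 and 2262 CPM against 11851 and 10739 CPM in Cd4 cells and 2410 and 2863 CPM against 13294 and 12488 CPM in Cd8 cells. In Foxp3 cells they were at 727 and 815 CPM against 2895 and 2654 CPM. Ccl5 and Nkg7 made up most of these sums. Of the 6 effector markers, 5 were higher without overlap in Cd4 and Foxp3 cells and all 6 in Cd8 cells. Gzmb was the exception, at 18.9 and 15.1 CPM against 18.3 and 18.1 CPM in Cd4 cells. For Foxp3 cells Gzmb stood at 151 and 188 CPM against 154 and 87.5 CPM. The part of these other cells in the member values was not tested further. Of the 44 members 9 overlap a coding gene on the other strand (Ccna2, Ccne2, Cdc20, Cdca8, Gins2, Mcm7, Nusap1, Tk1 and Ube2c), and the strand setting of the counting is not given in the sources used here.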

How the data were processed

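The deposited matrices hold raw UMI counts per gene and barcode, which the authors made with Cell Ranger from libraries of the Chromium Next GEM Single-Cell 3′ kit on the mm10 build. The Seurat release 4.0.0 is named in the submitters' processing notes. Cells with at least 200 genes and at most 5% mitochondrial UMIs were kept, and cells with RNA of both lineages (13.9 to 18.0%) were left out of the classes. A doublet score against simulated doublets was used for alternatives. Counts were summed per library and class, filtered with filterByExpr (minimum count 10), scaled by TMM and tested with edgeR 4.0.16 (R 4.3.3) over all genes with Benjamini-Hochberg adjustment. DESeq2 1.42.0 was an alternative. CPM scales a gene's count by the class's total UMIs. Intervals of shares are exact 95% binomial intervals and, like the floor of 3 counts, cover counting error only. The statistics were tested on simulated data. The members and lists were chosen with earlier results of these data known. Values in full were given for the 2 members of each role with the highest mean CPM in Cd8 cells and for Mki67, Top2a, Cdk1, Ccnb1, E2f1 and Pcna. Birc5, Bub1b, Tyms, Rrm2, Tk1, Stmn1 and Hmgb2 were added after their values were seen. Surface protein counts were not used here. A background share of mitotic RNA from cells outside these classes, and some marker values, are not reported here.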

Additional observations from a re-analysis of the deposited data

Results flagged for a closer look

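The knockdown difference of 2 members was not the same in Cd8 and Cd4 cells by a test of the difference itself (edgeR, an interaction term in 1 fit of the class sums). The fit had no library block, so the pairing of class sums from the same library was not used. For Mki67 it was 1.13 greater in Cd8 cells on the log2 scale (95% interval 0.48 to 1.78, adjusted p = 0.0425), with both knockdown libraries above both controls in either class. For Stmn1 it was 1.08 greater (0.81 to 1.35, adjusted p = 9.93e-06), with both knockdown libraries above the controls in Cd8 cells and below them in Cd4 cells. The number of members with such a difference was 0 without scored doublets, without sh_NC library 2 and with up to 10% mitochondrial UMIs, and 1 without either knockdown library, with the replicate block or without cells with markers of other types.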

How the results depend on the processing

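Over 21 counts and shares, 162 of 257 alternative values stayed within 1.5 times the main count or within 1 SD of the main share, and over 54 results of named members 565 of 614 kept their direction and side of the threshold. The causes of the changes were not tested. All-gene shares are given above for the main fits and those under the 3000-gene limit, and not for most alternatives. The count of members that rose in Cd4 cells (13) ranged from 7 to 17 when 1 library was left out, with 7 without sh_NC replicate 1, and under the 3000-gene limit (13) from 8 to 11. For Cd8 cells (19 and 14) the ranges were 17 to 20 and 14 to 16, for Foxp3 cells (2 and 1) 2 to 4 and 0 to 0, with 4 without sh_NC replicate 2. For Nkg7-high and other Cd4 cells (0 and 0) they were 0 to 1 and 0 to 1, and for Nkg7-high and other Cd8 cells (18 and 1) 17 to 19 and 0 to 1. They were 1 to 2 for Cd8 over Cd4 cells (2), 1 to 2 for Foxp3 over Cd4 cells (2), 0 to 3 for the differing effect in Cd8 cells (2) and 0 to 1 for that in Foxp3 cells (0).

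With no limit on the fold change the counts were 23 and 20 in Cd4 cells without and with the 3000-gene limit, 30 and 22 in Cd8 cells, 8 and 4 in Foxp3 cells, 1 and 1 in Nkg7-high and other Cd4 cells, 30 and 4 in Nkg7-high and other Cd8 cells, 8 and 7 for Cd8 and Foxp3 over Cd4 cells, and 4 for the differing effect in Foxp3 cells. With scored doublets left out they were 6 and 8 in Cd4 cells, 10 in Cd8 cells, 9 and 0 in Nkg7-high and other Cd8 cells, 0 and 0 in Foxp3 cells, and 0 and 1 for the differing effects in Cd8 and Foxp3 cells. With the stricter lineage call they were 8 and 7 in Cd4 cells, 0 and 0 in Foxp3 cells, 0 in other Cd8 cells, 0 for Foxp3 over Cd4 cells and 1 for the differing effect in Foxp3 cells. Without cells with markers of other types they were 0 and 0 in Foxp3 cells, 0 in other Cd8 cells, 0 for Foxp3 over Cd4 cells and 1 for the differing effect in Cd8 cells. With up to 10% mitochondrial UMIs they were 2 in Nkg7-high Cd4 cells, 0 in other Cd8 cells, 2 in Foxp3 cells under the limit, 1 for Foxp3 over Cd4 cells and 0 for the differing effect in Cd8 cells. DESeq2 gave 5 in Cd4 cells and 0 in Foxp3 cells under the limit, 0 in Foxp3 cells without it and 0 in other Cd8 cells, where RLE scaling also gave 0. With no filter on low counts the differing effects numbered 4 in Cd8 and 1 in Foxp3 cells. With the replicate number as a block they were 1 for the differing effect in Cd8 cells and 0 in other Cd8 cells, and 3 in Foxp3 cells. The replicate numbers did not pair the libraries (correlations of -0.00989, -0.00969 and -0.0212 in the 3 classes).

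The difference of the mitotic share in percentage points was 1.98 (1.81 to 2.15 with 1 library left out) in Cd4, 1.81 (1.29 to 2.32) in Cd8 and 2.12 (1.46 to 2.77) in Foxp3 cells, and 1.76 (1.61 to 1.91), 1.499 (0.873 to 2.13) and 1.75 (0.78 to 2.73) under the 3000-gene limit. In Cd4 cells without and with the limit it was 0.889 and 0.822 at 1000 UMIs, 11.1 and 10.01 without thinning, 8.23 and 7.77 at 1 UMI or more, 0.449 and 0.409 at 3 or more, 1.33 and 1.38 without scored doublets, and 2.65 and 2.53 with the stricter lineage call. In Cd8 cells it was 0.963 at 1000 UMIs, 4.72 and 5.75 without thinning, 5.14 and 5.35 at 1 UMI or more, and 0.628 and 0.397 at 3 or more. In Foxp3 cells it was 0.983 at 1000 UMIs, 4.57 and 4.31 without thinning, 3.77 and 4.09 at 1 UMI or more, and 0.673 at 3 or more without the limit. The median member's share of UMIs over the limit (53.5%, 53.0 to 54.8%) was 57.8% with up to 10% mitochondrial UMIs, 14.8% without scored doublets and 26.5% without cells with markers of other types.

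The sign of the log2 fold change turned in 28 values, none of a called member. With 1 library left out the values ran in Cd4 cells from -0.032 to 0.11 for Rrm1, from -0.032 to 0.61 for E2f1 and from -0.36 to 0.35 for Cdca8. In Foxp3 cells they ran from -0.023 to 0.48 for H2afz, from -0.48 to 0.37 for Rrm1, from -0.16 to 0.50 for Ccne1, from -1.31 to 0.36 for Cdca8, from -0.026 to 0.071 for Kif23, from -0.49 to 0.68 for Ccnb1 and from -0.15 to 7.26 for Ccnb2, the last without sh_NC replicate 2, against the library with 0 UMIs. Without scored doublets Cdca8 was at -0.12 in Cd4 and in Cd8 cells, Cdc20 at -0.28 in Cd8 cells, and Pcna at -0.052 and Kif23 at -0.071 in Foxp3 cells. Without cells with markers of other types Rrm1 was at -0.031, E2f1 at -0.093 and Cdca8 at -0.17 in Cd4 cells and H2afz at -0.030 in Foxp3 cells. With the stricter lineage call Rrm1 was at -0.043 and Cdca8 at -0.034 in Cd4 cells and Dut at -0.057, Rrm1 at -0.19 and Kif23 at -0.26 in Foxp3 cells, and with no filter on low counts Cdca8 was at -0.016 in Cd4 cells. Among called members, Ccnb2 in Cd4 cells lost its call without sh_NC replicate 1, by DESeq2, without cells with markers of other types and with the stricter lineage call. Mki67 in Cd4 cells came under the fold limit without sh_NC replicate 1 (0.90) and with the stricter lineage call (0.68), and Ccnb2 in Cd8 cells was not called without scored doublets (1.04). Top2a in Cd4 cells came under the fold limit without sh_NC replicate 1 (0.82), without sh_B7-H3 (1) replicate 1 (0.85), with the stricter lineage call (0.91), without scored doublets (0.92) and with no filter on low counts (0.98). Some members not called in the main fits passed the fold limit in an alternative. Kif23 reached -1.14 and Ccnb1 1.42 in Cd4 cells, and Cenpa reached 1.09 in Cd4 and 1.12 in Cd8 cells.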
